A study of Mus musculus with 18 samples.

Results

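The genes described here are 31 genes of sterol and fatty acid synthesis. With earlier results of these data known, they were chosen by their known roles in these pathways. They were found by Entrez Gene ID in the count table of 27179 genes, and 31 of 31 passed the filter on low values (at least 0.5 CPM, counts scaled to a common library size, in 3 samples) that left 12798 genes for testing. They comprise 6 genes of the mevalonate steps, 11 of the steps from squalene to sterol, 5 regulators of the SREBP transcription factors, a sterol carrier and an acetoacetyl-CoA enzyme (2 genes), and 7 genes of fatty acid synthesis and desaturation.

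RNA of sorted mouse thymocytes was sequenced in 18 samples from 9 mice, with 2 fractions from each mouse. Both fractions carried the activation marker CD69 and had therefore passed positive selection, and they differed in surface MHC I, which rises as thymocytes mature, so that the CD69+ MHC I low cells are the less mature and the CD69+ MHC I high cells the more mature fraction. The groups were wildtype (WT) mice, Hoil-floxed mice with Cd4Cre (HoilΔCd4) and Sharpin-cpdm mutant mice, with 3 mice each. HOIL (encoded by *Rbck1*) and SHARPIN are subunits of the linear ubiquitin chain assembly complex (LUBAC). In HoilΔCd4 mice the deletion is driven by the Cd4 promoter and so affects cells from the double-positive (DP) stage on. The cpdm mutation, by contrast, is present in every cell of the animal. Sharpin-cpdm mice came from a C57BL/Ka strain backcrossed 2 times to C57BL/6. The authors describe minor background differences, with these mice still largely C57BL/Ka and WT mice C57BL/6. In every comparison of Sharpin-cpdm with WT mice, the mutation and the strain background therefore cannot be told apart. Cells positive for CD25, CD44, γδ TCR or markers of other lineages had been gated out, and the age of these mice is not given in the sources used here.

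Cholesterol is built from acetyl-CoA through mevalonate, isoprenoid units, squalene and lanosterol. SREBP-2 (*Srebf2*) and SREBP-1 (*Srebf1*) activate most of these genes, together with those of fatty acid synthesis. SCAP escorts the SREBPs out of the endoplasmic reticulum when sterol is low, and the INSIG proteins hold them back when it is high. Lymphocytes that enter the cell cycle are known to raise the pathway to make membrane.

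The transcription factor NF-Y, which binds the CCAAT box, acts beside SREBP at many of these genes. RefSeq promoters (GRCm38.p6) were matched for 24 of the 31 genes, and not for *Fdps*, *Fdft1*, *Sqle*, *Stard4*, *Fads1*, *Scd1* and *Scd2*. Within 250 bases before the start, on either strand, the CCAAT box was found in 19 of the 24 genes (79.2%), against 40.7% of the 9985 tested genes with a promoter, and 11 of the 24 had at least 2 boxes (a CCAATTGG is counted on each strand). The sterol regulatory element core TCACNCCAC was found in 1 of 24 (4.17%), *Hmgcs1*, against 1.19%. These matches are descriptions of the letters in the window and not of binding. The 150 bases before the start are given for 5 genes whose level differed between the fractions in all 3 genotypes, with CCAAT boxes (ATTGG on the other strand) and the sterol element core in capitals. *Hmgcs1*, *Mvd* and *Fads2* were higher and *Srebf2* and *Fasn* lower in the MHC I high fraction.
Hmgcs1 (chr13:119690201-119690350, + strand): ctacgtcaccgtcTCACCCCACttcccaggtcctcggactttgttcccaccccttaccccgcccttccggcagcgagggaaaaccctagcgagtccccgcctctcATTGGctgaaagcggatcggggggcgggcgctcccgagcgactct
Mvd (chr8:122443423-122443572, - strand): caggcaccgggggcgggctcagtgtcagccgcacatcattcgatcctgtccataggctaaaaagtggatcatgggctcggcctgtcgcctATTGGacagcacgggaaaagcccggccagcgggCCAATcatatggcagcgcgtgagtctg
Fads2 (chr19:10101504-10101653, - strand): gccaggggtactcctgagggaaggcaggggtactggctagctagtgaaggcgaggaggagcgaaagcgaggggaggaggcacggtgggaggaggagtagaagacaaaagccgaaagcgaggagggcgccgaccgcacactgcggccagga
Srebf2 (chr15:82147119-82147268, + strand): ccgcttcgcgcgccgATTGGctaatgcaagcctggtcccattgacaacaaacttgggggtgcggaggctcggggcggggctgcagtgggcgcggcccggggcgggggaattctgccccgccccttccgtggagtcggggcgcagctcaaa
Fasn (chr11:120824548-120824697, - strand): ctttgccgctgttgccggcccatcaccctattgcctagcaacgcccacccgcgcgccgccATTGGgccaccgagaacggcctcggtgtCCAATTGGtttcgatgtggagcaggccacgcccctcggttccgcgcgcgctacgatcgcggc
In the windows shown, *Hmgcs1* held the sterol element and a CCAAT box, *Mvd* 2 CCAAT boxes and *Fads2* neither motif. *Srebf2* and *Fasn* also held CCAAT boxes. Among the genes with a promoter entry, a box lay in the 250 bases before a start in 5 of 5 that were lower in all 3 genotypes (*Dhcr7*, *Fasn*, *Insig2*, *Pmvk* and *Srebf2*) and in 2 of 4 that were higher (*Hmgcs1* and *Mvd*, not *Acaca* or *Fads2*). *Dhcr7*, *Insig2* and *Pmvk* had 3, 3 and 2 annotated starts, each with a box at 1 of them, whereas each of the 4 higher genes had 1 start. The start that the promoter entry gives lies inside the gene's outermost annotated span for *Fasn* and for *Acaca*, whose sequence is not shown. For *Acaca* the 150 bases (chr11:84195288-84195437) lie far inside that span (chr11:84129635-84401651). The lack of a box there says nothing about the sequence before the span.

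Each sample had between 10577966 and 16266128 counts (median 13979793). In the libraries labelled HoilΔCd4, *Rbck1* lay between 0.271 and 0.779 CPM in MHC I low and between 3.72 and 8.94 CPM in MHC I high cells. WT libraries had 217 to 268 CPM. The *Sharpin* transcript was at 66.4 to 77.9 CPM in Sharpin-cpdm and 85.9 to 97.3 CPM in WT. T lineage markers were high in every sample (summed level of 6 genes 3300 to 4960 CPM), and the summed markers of B cells (3.41 to 5.94 CPM), myeloid and dendritic cells (6.61 to 14.2 CPM), thymic epithelial cells (6.03 to 11.9 CPM) and erythroid cells (0.345 to 1.66 CPM) were low. *Pax5*, *Ms4a1*, *Foxn1* and *Krt5* were at 0 in every mouse of 2 to 5 groups. Other genes of these lists were detected in every group, among them *Cd79b* (1.73 to 4.68 CPM), *Itgam* (1.92 to 8.13 CPM), *Cd68* (3.75 to 7.35 CPM) and *Epcam* (5.6 to 11.6 CPM). By *Xist*, the WT mice were all female and each mutant group had 1 female and 2 male mice, so that sex and genotype are partly confounded. In HoilΔCd4 MHC I high cells, 1 library of a male mouse had 64.6 CPM of *Xist*, beside 4470 CPM in the female mouse. Whether remaining undeleted or other cells gave these reads was not tested.

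Levels of different genes were ranked as CPM per kilobase of exon (CPM scaled by TMM, a normalization of library composition). The summed levels given elsewhere add CPM that are not scaled by length. In WT MHC I low cells the desaturase gene *Scd2* was highest at 166 ± 12.7 CPM per kilobase (SD, n = 3), followed by *Acly* at 74.1 ± 1.91, *Srebf2* at 53.3 ± 5.17, *Srebf1* at 45.8 ± 3.85, *Fasn* at 36.3 ± 1.30, *Scap* at 36.1 ± 0.465 and the last-step sterol enzyme *Dhcr7* at 31.9 ± 1.31. *Fasn* and *Scap* did not differ beyond their spread. The next gene, *Insig2*, stood at 14.1 ± 0.985, and 19 genes from *Insig2* down to *Sqle* (4.0 ± 0.234) formed a nearly continuous series in which most neighbours did not differ beyond their spread. The lowest 5 were *Hsd17b7* (1.40 ± 0.110), *Acaca* (1.25 ± 0.117), *Scd1* (0.880 ± 0.116), *Idi1* (0.804 ± 0.0684) and *Fads2* (0.552 ± 0.363).
Paralogues were used unequally. *Scd2* exceeded *Scd1*, which lies 0.0876 Mb away on chromosome 19, by a mean ratio per kilobase of 155 to 191 in the 6 groups. *Insig2* exceeded *Insig1* by 2.38 to 3.72. The ratio of *Fads1* to *Fads2*, neighbours on the same chromosome, was 28.5 ± 20.1 in WT MHC I low and 5.37 ± 1.09 in WT MHC I high cells. Counts of near-identical paralogues are uncertain, because the handling of reads that match several places is not given in the sources used here. The strand setting is not given either, and 6 members overlap another gene with counts, among them *Srebf1*, which shares 114 bases with *Rai1*, and *Fdft1*, which shares 774 bases with *Ctsb*.

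**Figure D1:**
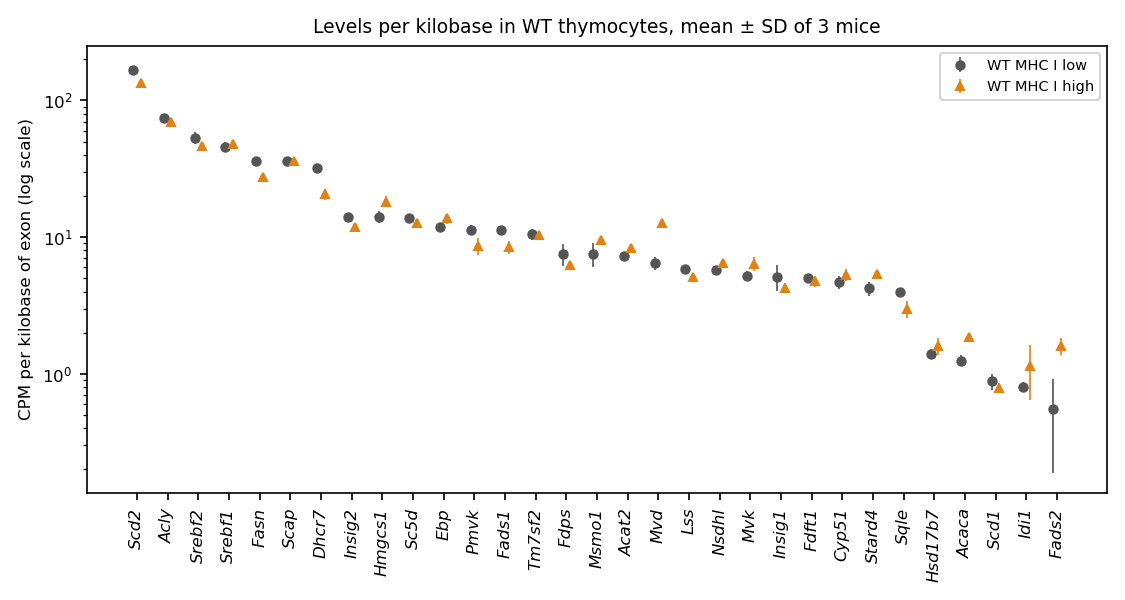
Level of the 31 genes in WT thymocytes, in CPM per kilobase of exon on a log axis, ordered by the MHC I low fraction (circles) with the MHC I high fraction beside it (triangles), as mean ± SD of 3 mice. Scd2 stands at 166 and Fads2 at 0.552 CPM per kilobase in MHC I low cells, and the triangles lie clearly above the circles for Mvd, Acaca and Fads2 and below them for Dhcr7.

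The comparison of the fractions asked how the pathway changed as selected thymocytes matured. In WT cells, 7 of the 31 genes were higher and 12 lower in MHC I high than in MHC I low thymocytes (limma adjusted p under 0.05, as for all calls here). Over all genes tested, 27.5% were higher and 26.8% lower, against 22.6% and 38.7% of the members. The members did not move together, and their median log2 difference was -0.008, beside -0.004 over all genes. In Sharpin-cpdm cells the counts were again 7 and 12 (all genes 27.2% and 27.4%), and in HoilΔCd4 cells 7 were higher and 6 lower (23.5% and 21.7%). Without WT mouse 3, whose MHC I high library carried the largest quality weight (2.42), the WT counts were 6 and 6. The share of all genes called in WT went from 54.4% to 38.7% with the same omission.
By gene, 5 were higher in MHC I high cells of all 3 genotypes (*Hmgcs1*, *Mvd*, *Stard4*, *Fads2* and *Acaca*) and 6 were lower in all 3 (*Pmvk*, *Dhcr7*, *Insig2*, *Srebf2*, *Fads1* and *Fasn*). These are 16.1% and 19.4% of the members, beside 18.1% and 16.2% of all genes tested. None was called in opposite directions (0.359% of all genes), and 7 were called in no genotype, namely *Mvk*, *Fdft1*, *Tm7sf2*, *Hsd17b7*, *Sc5d*, *Srebf1* and *Acat2* (22.6%, beside 29.3% of all genes). The other 13 were called in 1 or 2 genotypes. A call in 1 genotype and not in another does not show a difference between them.

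**Figure D2:**
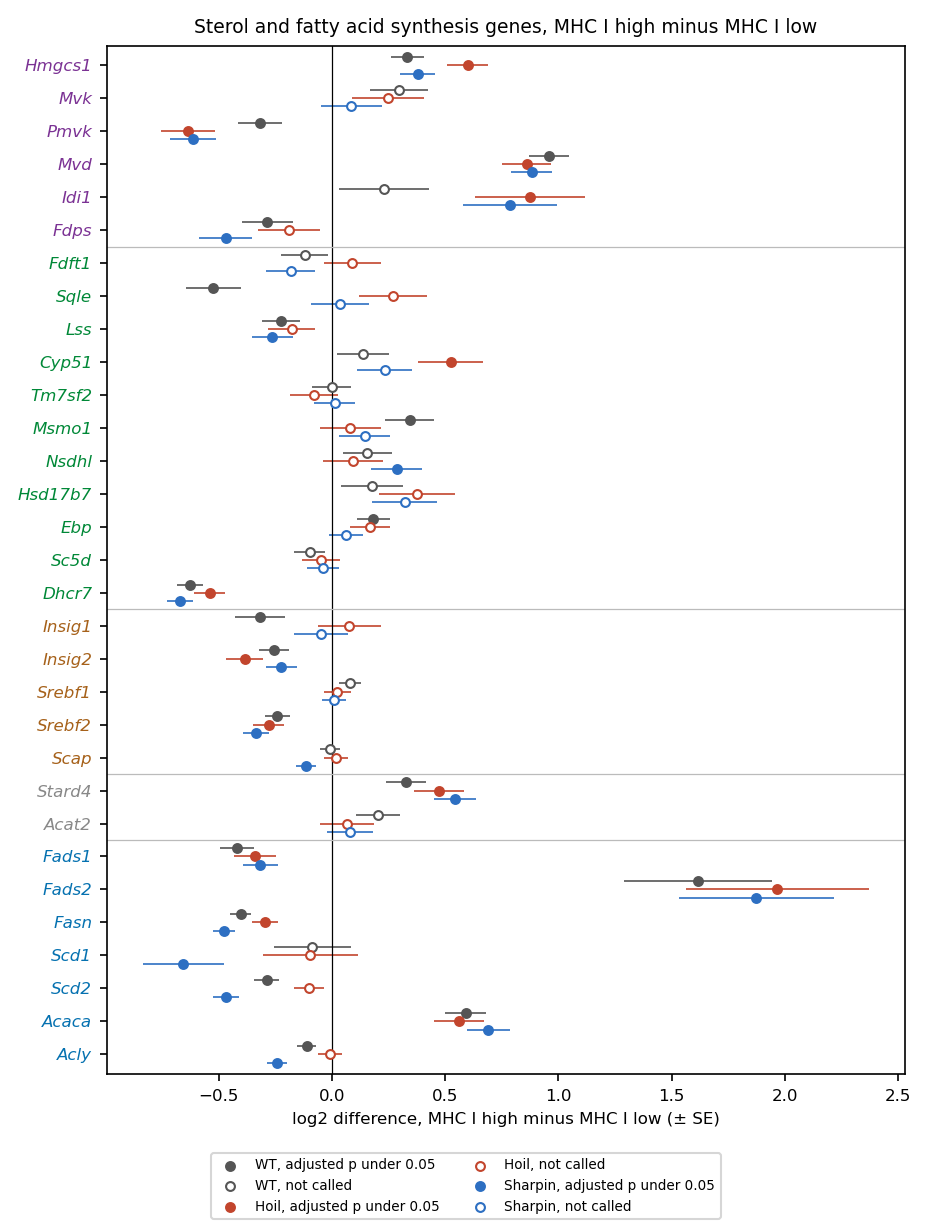
Log2 difference between MHC I high and MHC I low thymocytes for the 31 genes, grouped by role and coloured by genotype (Hoil is HoilΔCd4 and Sharpin is Sharpin-cpdm), as the limma estimate ± SE (3 mice a genotype), with filled points for adjusted p under 0.05. Fads2 lies farthest right at 1.61 in WT and Dhcr7 farthest left at -0.63, and the colours lie close together for most genes.

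In the mevalonate steps, which make the isoprenoid units, consecutive enzymes moved in opposite directions. *Mvd*, the decarboxylase that yields isopentenyl diphosphate (chr8:122433596-122443422), was at 13.1, 12.3 and 10.6 CPM in the MHC I low cells of the 3 WT mice and at 22.2, 24.9 and 23.4 CPM in their MHC I high cells. It was at 12.3, 13.4 and 11.7 against 23.1, 23.2 and 21.5 CPM in HoilΔCd4 mice and at 11.8, 13.1 and 16.1 against 24.5, 24.3 and 24.9 CPM in Sharpin-cpdm mice. All 9 MHC I high samples lay above all 9 MHC I low samples. The log2 difference was 0.96 ± 0.088 (SE, adjusted p = 8.58e-11) in WT, 0.86 ± 0.108 in HoilΔCd4 and 0.88 ± 0.092 in Sharpin-cpdm cells.
*Pmvk*, the kinase immediately before *Mvd*, was lower instead. Its mean fell from 17.0 ± 1.35 to 13.0 ± 1.78 CPM in WT, from 19.2 ± 2.16 to 12.4 ± 0.937 CPM in HoilΔCd4 and from 20.1 ± 0.856 to 12.9 ± 1.11 CPM in Sharpin-cpdm mice (log2 differences -0.32, -0.64 and -0.61). Without WT mouse 3 the WT difference in *Pmvk* was -0.55. *Hmgcs1*, the synthase that opens the pathway, was higher in all 3 genotypes, from 46.4 ± 4.80 to 59.8 ± 5.35 CPM in WT (log2 difference 0.33 ± 0.073, adjusted p = 0.000308). *Fdps*, which joins the isoprenoid units, was lower in WT and Sharpin-cpdm cells (-0.28 and -0.47). The WT call of *Fdps* was lost under 8 of 18 alternatives, with each mouse as a fixed block (adjusted p = 0.059) and without WT mouse 1 or 3 among them. *Idi1*, whose levels are given with the mutants, was higher in HoilΔCd4 (0.87) and Sharpin-cpdm cells (0.79), calls that were lost without HoilΔCd4 mouse 2 (adjusted p = 0.076) and Sharpin-cpdm mouse 2 (adjusted p = 0.091). The summed level of the 6 genes was 97.4 ± 4.20 CPM in the MHC I low and 119 ± 7.11 CPM in the MHC I high thymocytes of WT mice.

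In the steps from squalene to sterol, *Dhcr7*, which performs the final reduction to cholesterol (chr7:143823167-143848410), fell most. It was at 92.6, 91.1 and 85.6 CPM in the MHC I low and 51.8, 62.2 and 59.9 CPM in the MHC I high thymocytes of WT mice. In HoilΔCd4 mice it was at 90.3, 84.2 and 96.2 against 62.3, 63.8 and 60.6 CPM, and in Sharpin-cpdm mice at 77.6, 71.9 and 78.3 against 46.0, 48.0 and 47.0 CPM. No MHC I high sample reached the lowest MHC I low sample of any genotype. The log2 difference was -0.63 ± 0.056 in WT (adjusted p = 4.88e-11), -0.54 ± 0.069 in HoilΔCd4 and -0.67 ± 0.059 in Sharpin-cpdm cells, and it held under all alternatives tried.
Differences of the other 10 enzymes of this stretch were smaller. *Lss*, which closes the sterol ring, was lower in WT (-0.22) and Sharpin-cpdm cells (-0.26), whereas *Msmo1* (0.34) and *Ebp* (0.18) were higher in WT, *Cyp51* (0.52) in HoilΔCd4 and *Nsdhl* (0.29) in Sharpin-cpdm cells. *Ebp* and *Nsdhl* are X-linked, and the *Nsdhl* call was lost with *Xist* as a covariate and without Sharpin-cpdm mouse 3 (0.11), while *Nsdhl* differed by 0.45 without mouse 1 or 2 and *Ebp* by 0.28 without WT mouse 1. The calls of *Lss*, *Msmo1* and *Ebp* in WT cells were lost without WT mouse 3, those of *Lss* and *Ebp* also without WT mouse 2 and with DESeq2, that of *Lss* with edgeR, that of *Lss* in Sharpin-cpdm cells without mouse 1 or 2, and that of *Cyp51* without HoilΔCd4 mouse 2 (0.42, adjusted p = 0.0722). The summed level of the 11 genes went from 253 ± 7.61 to 226 ± 12.6 CPM in WT cells, and with the mevalonate genes added the 17 sterol enzymes summed to between 345 and 360 CPM on average in all 6 groups. *Dhcr7* alone gave 89.8 CPM of the WT MHC I low sum.

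**Figure D3:**
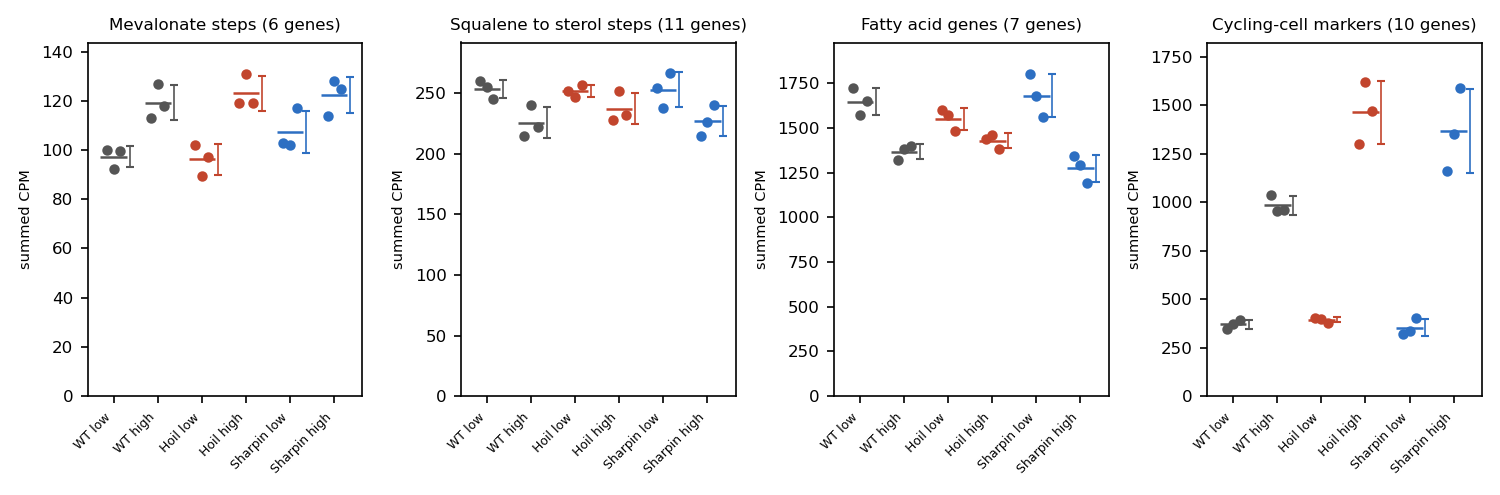
Summed CPM of the mevalonate genes, the squalene to sterol genes, the fatty acid genes and 10 cycling-cell markers in each mouse (points), with the group mean (line) and SD (bar), where low and high are the MHC I fractions. The fatty acid genes go from 1650 to 1370 CPM between the WT fractions, the mevalonate genes from 97.4 to 119 CPM, and the cycling-cell markers from 370 to 983 CPM.

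Among the regulators, *Srebf2* and *Insig2* were lower in MHC I high cells of all 3 genotypes, and *Srebf1*, the other SREBP gene, was called in none. *Srebf2* (chr15:82147269-82205379) was at 266, 219 and 246 CPM in the MHC I low and 205, 220 and 205 CPM in the MHC I high thymocytes of WT mice, so that the groups overlapped by 1 mouse. The log2 difference was -0.24 ± 0.055 in WT (adjusted p = 0.00045), -0.28 ± 0.067 in HoilΔCd4 and -0.34 ± 0.058 in Sharpin-cpdm cells. The WT call ended when WT mouse 3 (-0.18, adjusted p = 0.0826) or WT mouse 1 (-0.12, adjusted p = 0.148) was left out. *Insig2* differed by -0.26 in WT, -0.39 in HoilΔCd4 and -0.22 in Sharpin-cpdm cells. The WT call of *Insig2* was lost without WT mouse 2 (-0.16, adjusted p = 0.0892). *Srebf1* differed by 0.08, 0.02 and 0.01. *Scap* was lower in Sharpin-cpdm cells (-0.12) and *Insig1* in WT cells (-0.32), and these calls were lost under 7 and 6 of 18 alternatives, among them leaving out any Sharpin-cpdm mouse for *Scap* and WT mouse 1 or 3 for *Insig1*.
The sterol carrier *Stard4* was higher in all 3 genotypes, by 0.33 ± 0.090, 0.47 ± 0.111 and 0.54 ± 0.094, and lost its WT call without WT mouse 1 (0.26, adjusted p = 0.0689). *Acat2*, which makes acetoacetyl-CoA, was not called.

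The fatty acid genes split by step. *Acaca*, the carboxylase that commits acetyl-CoA to fatty acid synthesis (chr11:84129635-84401651), was higher in MHC I high cells. It was at 10.1, 11.7 and 12.1 against 17.4, 15.8 and 17.1 CPM in WT, at 14.4, 14.2 and 13.0 against 19.8, 23.3 and 18.2 CPM in HoilΔCd4 and at 10.2, 10.3 and 10.4 against 16.5, 17.4 and 15.6 CPM in Sharpin-cpdm mice. All 9 MHC I high values exceeded all 9 MHC I low values. The log2 difference was 0.59 ± 0.090 (adjusted p = 1.78e-06), 0.56 ± 0.111 and 0.69 ± 0.095.
*Fasn*, the synthase that uses the product of *Acaca* (chr11:120805958-120825166), was lower. It went from 366, 346 and 370 to 262, 291 and 274 CPM in WT, from 367, 374 and 381 to 287, 326 and 297 CPM in HoilΔCd4 and from 440, 415 and 389 to 312, 303 and 280 CPM in Sharpin-cpdm mice. The fractions did not overlap within or across genotypes. The log2 difference was -0.40 ± 0.046 in WT (adjusted p = 8.1e-09), -0.29 ± 0.056 in HoilΔCd4 and -0.48 ± 0.048 in Sharpin-cpdm cells.
The desaturases *Fads1* and *Fads2*, neighbours 0.0814 Mb apart that act on polyunsaturated fatty acids, went opposite ways. *Fads1* (chr19:10182877-10196874) was at 37.5, 39.8 and 38.9 CPM in the MHC I low and 26.0, 32.6 and 29.2 CPM in the MHC I high thymocytes of WT mice (log2 difference -0.42 ± 0.075, adjusted p = 2.06e-05). It was at 36.1, 43.5 and 38.9 against 25.6, 34.5 and 32.0 CPM in HoilΔCd4 mice and at 36.5, 43.6 and 40.5 against 29.8, 33.1 and 34.5 CPM in Sharpin-cpdm mice, lower in each mouse, although the Sharpin-cpdm call was lost without mouse 2 (-0.26, adjusted p = 0.0531). *Fads2* (chr19:10062765-10101503) was at 0.320, 0.767 and 1.41 against 2.75, 2.45 and 2.07 CPM in WT mice. These levels rest on few reads, 5 to 18 counts in the WT MHC I low and 30 to 39 in the WT MHC I high samples.
*Fads2* was at 1.09, 0.865 and 1.36 against 2.96, 5.00 and 5.57 CPM in HoilΔCd4 mice and at 0.473, 0.689 and 0.920 against 2.43, 3.50 and 1.64 CPM in Sharpin-cpdm mice. It rose in every mouse. The difference was the largest among the members, with log2 values of 1.61 ± 0.327 (adjusted p = 0.000152), 1.97 ± 0.402 and 1.87 ± 0.343. Without WT mouse 1 the WT difference in *Fads2* was 1.06 (adjusted p = 0.017). *Scd2* was lower in WT (-0.29 ± 0.055) and Sharpin-cpdm cells (-0.47 ± 0.057), *Scd1* in Sharpin-cpdm cells (-0.66 ± 0.178), and *Acly*, which makes cytosolic acetyl-CoA, in WT (-0.11 ± 0.042) and Sharpin-cpdm cells (-0.24 ± 0.044). The summed level of the 7 genes went from 1650 ± 76.2 to 1370 ± 43.1 CPM in WT cells. *Scd2*, *Fasn* and *Acly* gave 903.7, 360.5 and 327.9 CPM of the MHC I low sum, so that it shows little of *Acaca* and *Fads2*. The WT call of *Acly* was lost under 7 of 18 alternatives, with edgeR and DESeq2 and without WT mouse 1 or 3 among them.
The fractions also differed in markers of the cell cycle, of cell stage and of the CD4 and CD8 lineages. In WT mice *Cd8a* was at 218 to 240 CPM in MHC I low and 745 to 828 CPM in MHC I high cells. *Cd4* was at 819 to 854 CPM and 675 to 740 CPM in turn. Both genes differed in the same directions in HoilΔCd4 and Sharpin-cpdm mice, without overlap of the fractions. Of 10 cycling-cell markers, 10 were higher in MHC I high cells of each genotype, and their summed level went from 348 to 391 CPM in WT MHC I low to 956 to 1040 CPM in WT MHC I high cells. Of 6 markers of mature single-positive (SP) thymocytes, 5 were higher and 1 was lower in each genotype. The 5 markers of pre-selection DP thymocytes differed by genotype, with 0 higher and 4 lower in WT (median log2 difference -0.78), 2 higher and 1 lower in HoilΔCd4 (0.09) and 3 higher and 1 lower in Sharpin-cpdm cells (0.51). In bulk samples, fewer cells of a kind and less RNA per cell cannot be told apart. The part of cycling or of cell composition in the differences of the members was not tested.

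**Figure D4:**
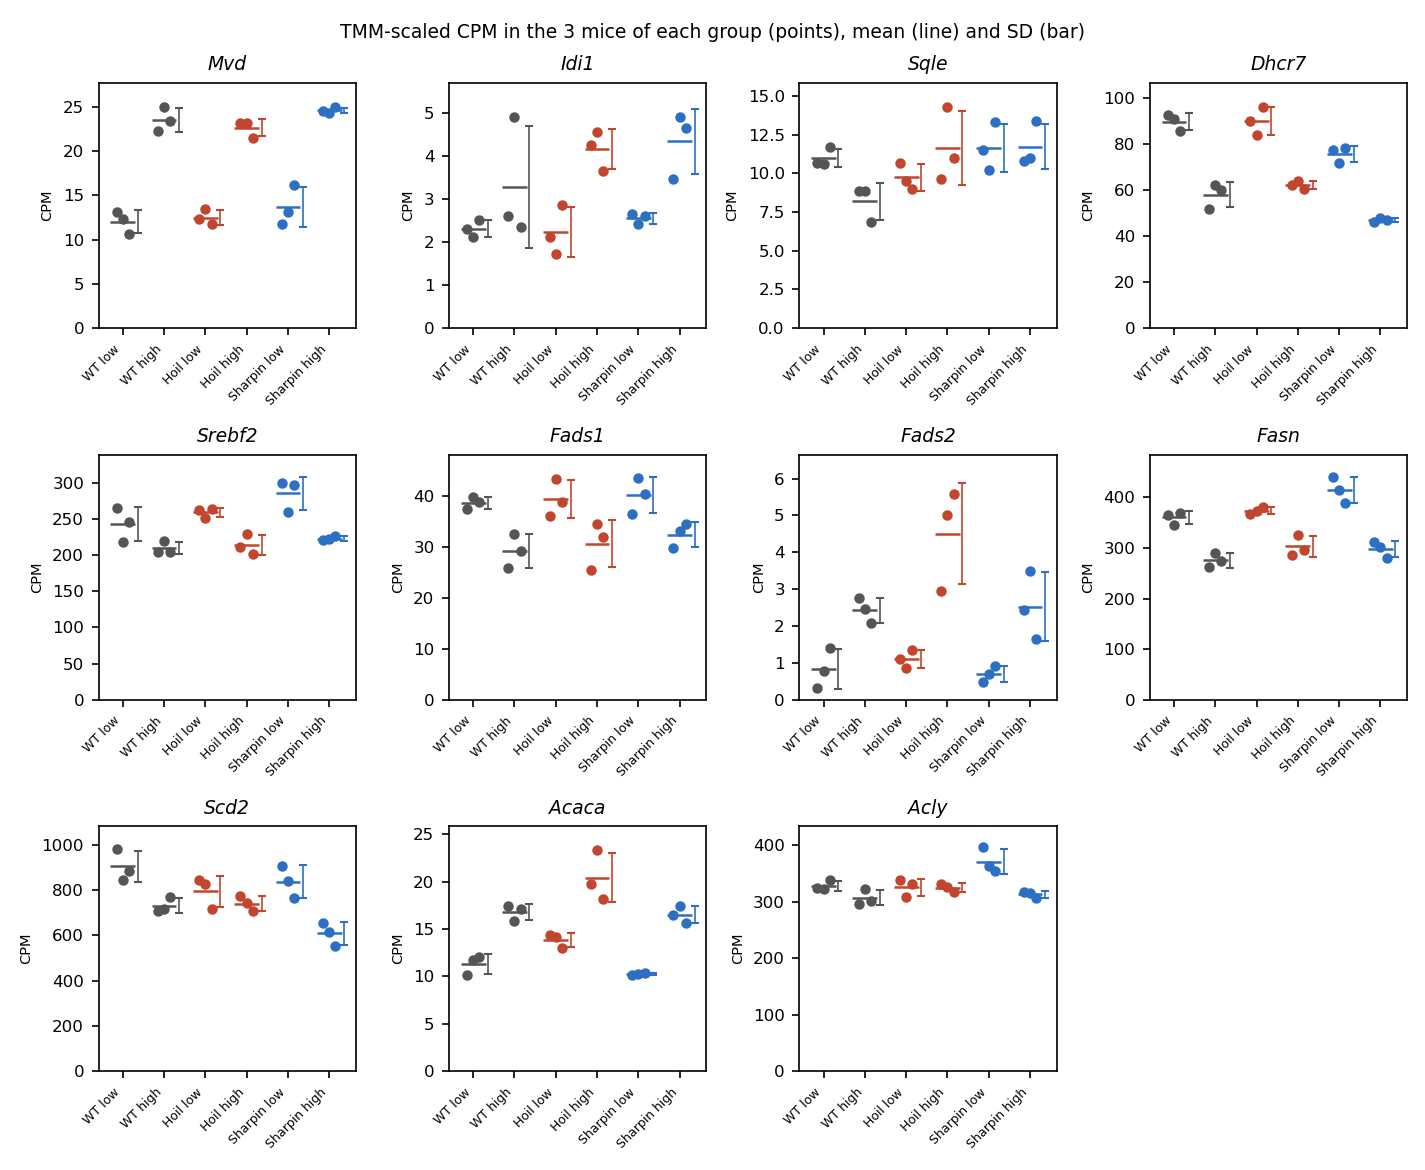
CPM of the 11 genes given in full, in each of the 3 mice of the 6 groups (points), with the mean (line) and SD (bar) and an axis from 0. Mvd, Fads2 and Acaca stand higher and Dhcr7, Fads1 and Fasn lower in the MHC I high fraction of each genotype, and Sqle is lowest in WT MHC I high cells (6.83 to 8.89 CPM).

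The mutants were compared with WT to ask whether loss of a LUBAC subunit altered these genes. In MHC I low cells of HoilΔCd4 mice, no member was called by limma, beside 0.422% of all genes higher and 0.563% lower; 3 members had an unadjusted p under 0.05, and edgeR and DESeq2 also called 0. In MHC I high cells, 1 of 31 was higher and 0 lower (all genes 3.84% and 2.81%), and 7 had an unadjusted p under 0.05. This count was 0 by edgeR, 1 by DESeq2, 0 without HoilΔCd4 mouse 2 or WT mouse 1 or 3, and 2 without HoilΔCd4 mouse 1. In Sharpin-cpdm mice, 3 were higher and 1 lower in MHC I low cells (5.31% and 6.92%), and 2 were higher and 2 lower in MHC I high cells (4.15% and 4.47%), of which 0 were called without WT mouse 3. The member shares of 9.68%, 3.23%, 6.45% and 6.45% in Sharpin-cpdm cells came from 1 to 3 genes each. Median differences of the members were 0.008 and 0.073 in HoilΔCd4 and 0.112 and 0.051 in Sharpin-cpdm cells, for MHC I low and high in turn. The 4 comparisons share the WT samples. The largest difference was that of *Fads2* in HoilΔCd4 MHC I high cells (1.02 ± 0.392, adjusted p = 0.116), which was not called.
In all, 7 of the 31 genes were called in at least 1 of the 4 comparisons (*Sqle*, *Idi1*, *Dhcr7*, *Srebf2*, *Fasn*, *Scd2* and *Acly*) and 24 in none. The 7 are 22.6% of the members, close to the 21.3% of all genes tested that were called in at least 1 of the 4.

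**Figure D5:**
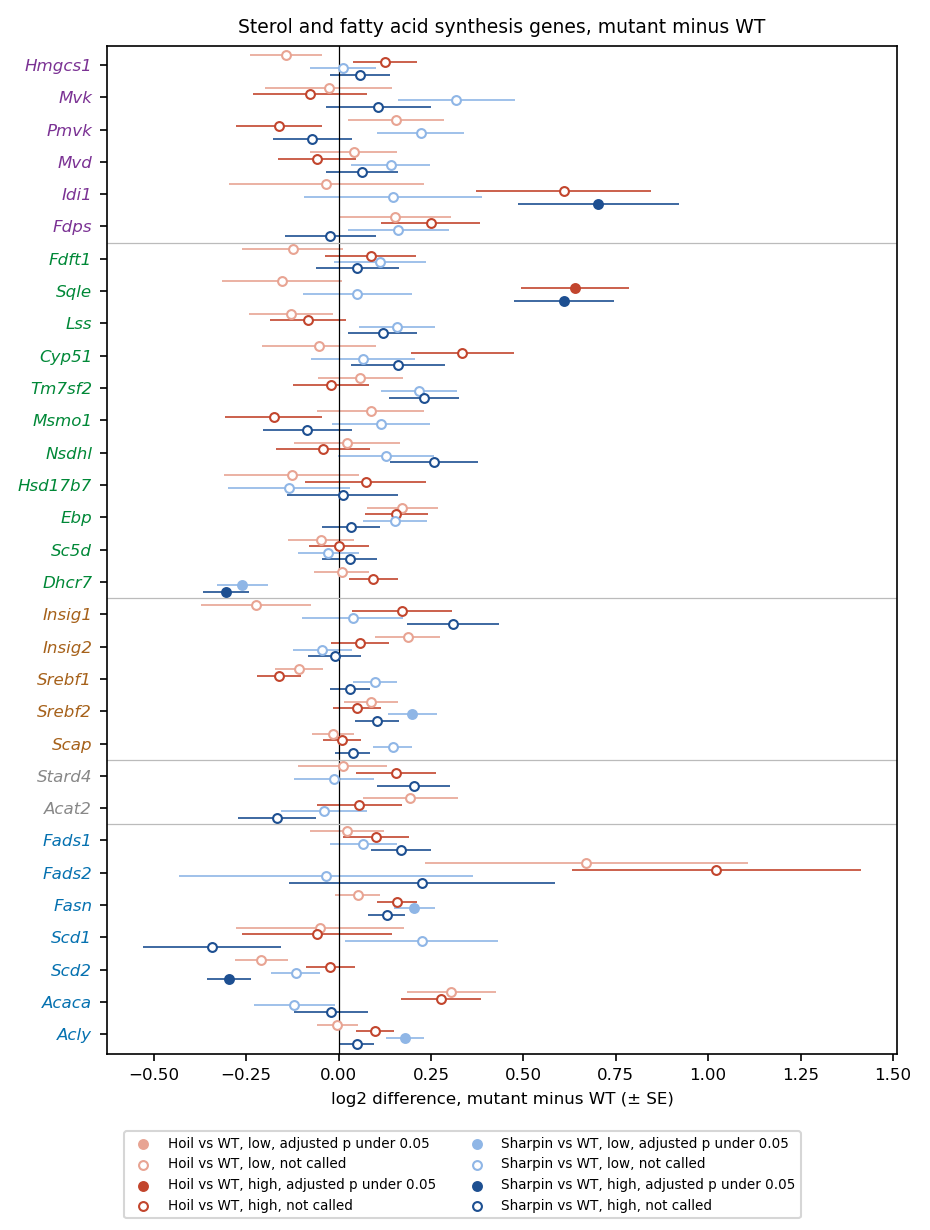
Log2 difference between mutant and WT thymocytes for the 31 genes in each fraction, as the limma estimate ± SE (3 mice a group), with filled points for adjusted p under 0.05. Most points lie near 0, and the filled points farthest from it are Idi1 (0.70) and Sqle (0.64 and 0.61) in MHC I high cells.

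*Sqle*, the squalene monooxygenase that is a rate-limiting step of the sterol branch (chr15:59315092-59331193), was the 1 member called in both mutants. In WT mice it was at 10.7, 10.6 and 11.7 CPM in MHC I low and 8.89, 8.85 and 6.83 CPM in MHC I high cells. In HoilΔCd4 mice it was at 10.7, 9.52 and 9.02 CPM in MHC I low and 9.64, 14.3 and 11 CPM in MHC I high cells. In Sharpin-cpdm mice it was at 11.5, 10.2 and 13.3 against 10.8, 11 and 13.4 CPM.
All 6 mutant MHC I high samples lay above the 3 WT MHC I high samples, while the MHC I low samples of the genotypes overlapped. In MHC I high cells the log2 difference from WT was 0.64 ± 0.146 in HoilΔCd4 mice (adjusted p = 0.00632) and, at an adjusted p of 0.00307, 0.61 ± 0.134 in Sharpin-cpdm mice. In WT cells *Sqle* fell between the fractions (-0.52 ± 0.122, adjusted p = 0.000537), and in the mutants it differed by 0.27 ± 0.15 and 0.04 ± 0.128, with no call. The difference in this change from WT was 0.79 ± 0.193 in HoilΔCd4 (adjusted p = 0.058) and 0.56 ± 0.176 in Sharpin-cpdm mice (adjusted p = 0.0746), and neither passed the test.
These results leaned on WT mouse 3, which had the lowest value and the largest weight. Without it, the differences were 0.40 (adjusted p = 0.353), 0.37 (adjusted p = 0.344) and, between the WT fractions, -0.25 (adjusted p = 0.219). The HoilΔCd4 call also ended when WT mouse 1 (adjusted p = 0.0792) or HoilΔCd4 mouse 2 (adjusted p = 0.202) was left out, and with equal sample weights the adjusted p was 0.0799 in HoilΔCd4 and 0.0559 in Sharpin-cpdm mice.

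*Idi1*, the isomerase of the isoprenoid units (chr13:8885606-8892396), had few reads, 20 to 78 counts a sample. It was at 2.30, 2.11 and 2.50 CPM in the MHC I low and 2.59, 4.89 and 2.34 CPM in the MHC I high thymocytes of WT mice. It was at 2.11, 1.73 and 2.85 against 4.25, 4.55 and 3.65 CPM in HoilΔCd4 and at 2.64, 2.41 and 2.59 against 3.46, 4.89 and 4.64 CPM in Sharpin-cpdm mice. It rose in every mutant mouse, while in WT only mouse 2 reached the mutant range.
In MHC I high cells, *Idi1* differed from WT by 0.70 ± 0.217 in Sharpin-cpdm (adjusted p = 0.0391) and by 0.61 ± 0.237 in HoilΔCd4 mice (adjusted p = 0.117). The Sharpin-cpdm call was lost under 9 of 18 alternatives, with edgeR and DESeq2 among them (adjusted p = 0.453 and 0.548), with the replicate number as a block (0.157) and without WT mouse 3 (0.30, adjusted p = 0.743) or WT mouse 1 (0.38, adjusted p = 0.527), or without Sharpin-cpdm mouse 2 or 3 (0.293 and 0.203).
The cell cycle and DP markers moved the same way as *Sqle* and *Idi1* in these comparisons. Of 10 cycling-cell markers, 9 were higher than in WT in the MHC I high cells of HoilΔCd4 and 7 in those of Sharpin-cpdm mice (summed 1300 to 1620 and 1160 to 1590 CPM, against 956 to 1040 CPM in WT), and 5 of 5 and 4 of 5 markers of pre-selection DP thymocytes were higher (summed 283 to 451 and 244 to 336 CPM, against 207 to 225 CPM). Their part in the differences was not tested.

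*Dhcr7* was lower in Sharpin-cpdm than in WT mice in both fractions. The 3 mutant samples lay below the 3 WT samples in each fraction (values above), and the HoilΔCd4 samples overlapped those of WT. The log2 difference was -0.26 ± 0.068 for MHC I low thymocytes (adjusted p = 0.011) and -0.30 ± 0.062 for the more mature fraction (adjusted p = 0.00137), beside 0.01 and 0.09 in HoilΔCd4 mice. HoilΔCd4 exceeded Sharpin-cpdm by 0.27 ± 0.077 (adjusted p = 0.0244) and 0.40 ± 0.068 (adjusted p = 0.000261). Leaving out WT mouse 3 ended the MHC I high call (-0.27, adjusted p = 0.0816), and leaving out Sharpin-cpdm mouse 2 the MHC I low call (-0.21, adjusted p = 0.125).
*Dhcr7* lies 0.195 Mb from *Tnfrsf26* on chromosome 7. Within 2 Mb of *Dhcr7*, 11 of 32 tested genes (34.4%) were called between Sharpin-cpdm and WT in each fraction, 7 of them lower, where 12.2% and 8.62% of all genes were called, beside 0 of 32 and 1 of 32 between HoilΔCd4 and WT. Within 2 Mb of *Sharpin* itself, on chromosome 15, the counts in Sharpin-cpdm cells were 11 of 79 (13.9%) and 3 of 79 (3.80%). Whether the *Dhcr7* region of the Sharpin-cpdm mice carries another strain's sequence was not tested. *Sqle* and *Srebf2* lie on the chromosome of *Sharpin*, 17.0 and 5.8 Mb from it, and within 2 Mb of them 2 of 20 (10%) and 3 of 20 (15.0%), and 10 of 55 (18.2%) and 5 of 55 (9.09%), were called in the MHC I low and high fractions.

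*Scd2* (chr19:44293676-44306864) was lower in Sharpin-cpdm MHC I high cells. It was at 708, 715 and 770 CPM in WT, 772, 742 and 705 CPM in HoilΔCd4 and 656, 616 and 554 CPM in Sharpin-cpdm MHC I high cells, and at 981, 846 and 885, at 842, 825 and 716 and at 908, 839 and 765 CPM in the MHC I low cells of the same mice. The Sharpin-cpdm values lay below all others in the MHC I high fraction and among them in the MHC I low fraction. The log2 difference from WT was -0.30 ± 0.060 in MHC I high (adjusted p = 0.00161, lost without WT mouse 3 at -0.23, adjusted p = 0.161) and -0.12 ± 0.066 in MHC I low cells, with no call. HoilΔCd4 exceeded Sharpin-cpdm by 0.27 ± 0.066 in MHC I high cells (adjusted p = 0.0106), a call that was lost without HoilΔCd4 mouse 2 or Sharpin-cpdm mouse 2 or 3.

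In the MHC I low cells of Sharpin-cpdm mice, *Fasn*, *Acly* and *Srebf2* were slightly higher than in WT. *Fasn* was at 440, 415 and 389 against 366, 346 and 370 CPM in WT, with no overlap, and differed by 0.21 ± 0.056 (adjusted p = 0.0141). *Acly* (chr11:100476352-100528000) was at 397, 363 and 354 against 325, 322 and 338 CPM, also without overlap, and differed by 0.18 ± 0.051 (adjusted p = 0.0192). In HoilΔCd4 MHC I low cells *Acly* was at 338, 309 and 331 CPM, overlapping WT.
In MHC I high cells *Acly* was at 297, 323 and 302 CPM in WT, 332, 327 and 317 CPM in HoilΔCd4 and 318, 316 and 306 CPM in Sharpin-cpdm mice, and the groups overlapped. *Srebf2* was at 301, 260 and 298 CPM in Sharpin-cpdm, 263, 252 and 264 CPM in HoilΔCd4 and 266, 219 and 246 CPM in WT MHC I low cells, with overlap. It differed from WT by 0.20 ± 0.067 (adjusted p = 0.0469). The more mature fraction had 211, 230 and 202 CPM in HoilΔCd4 and 221, 222 and 227 CPM in Sharpin-cpdm mice, the latter just above the WT range of 205 to 220 CPM (log2 difference 0.10 ± 0.060, with no call).
The *Srebf2* call was lost under 9 of 18 alternatives, with *Xist* as a covariate among them (adjusted p = 0.132) and without any of WT mouse 2 or 3, Sharpin-cpdm mouse 1 or 3 or HoilΔCd4 mouse 1. *Fasn* and *Acly* lost theirs without Sharpin-cpdm mouse 1 (adjusted p = 0.13 and 0.17) or 2 (0.0881 and 0.0631), and *Acly* also without WT mouse 1 (0.0857). Without either of those Sharpin-cpdm mice, 1 of the 4 calls in this comparison was left.

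The mutants were also compared with each other. In MHC I low cells 2 members were higher and 2 lower in HoilΔCd4 than in Sharpin-cpdm mice (all genes 5.12% and 4.36%), and in MHC I high cells 2 were higher and 1 lower (3.71% and 3.02%). Beside *Dhcr7* and *Scd2*, *Acaca* was higher in HoilΔCd4 MHC I low cells by 0.42 ± 0.124 (adjusted p = 0.0275), with all 3 HoilΔCd4 values (13.0 to 14.4 CPM) above all 3 Sharpin-cpdm values (10.2 to 10.4 CPM). *Acly* was lower in MHC I low cells (-0.18 ± 0.058, adjusted p = 0.0413). *Srebf1* was lower in both fractions (-0.21, adjusted p = 0.0499, and -0.19, adjusted p = 0.0489), at 182 to 188 against 209 to 220 CPM and at 178 to 202 against 198 to 221 CPM. Apart from *Dhcr7* in MHC I high cells, each of these calls was lost without at least 2 of the mice in turn. In MHC I low cells, leaving out HoilΔCd4 mouse 1 or Sharpin-cpdm mouse 1 or 2 left 0 calls, leaving out HoilΔCd4 mouse 2 or 3 left 1 (beside 1 other gene without mouse 2), and leaving out Sharpin-cpdm mouse 3 or WT mouse 3 left 2. In MHC I high cells, leaving out HoilΔCd4 mouse 2 or Sharpin-cpdm mouse 2 left 1.
The change between the fractions was compared between each mutant and WT. No member was called in HoilΔCd4 (7 with an unadjusted p under 0.05, all genes 0.297% higher and 0.102% lower) or in Sharpin-cpdm mice (5 with an unadjusted p under 0.05, all genes 2.2% higher and 0.93% lower), and edgeR and DESeq2 also called 0 in each.

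Genes around the pathway that were not members were counted from lists, which were chosen with earlier results of these data known. List shares set beside those of all genes are therefore descriptions and not tests. Of 15 genes of SREBP processing and sterol-regulated degradation, HoilΔCd4 mice had 1 below WT in the MHC I low and 2 in the MHC I high fraction (6.67% and 13.3%, beside 0.563% and 2.81% of all genes). *Marchf6*, a ubiquitin ligase of the endoplasmic reticulum known to mark squalene monooxygenase for degradation, was at 223, 202 and 206 CPM in WT and 109, 118 and 124 CPM in HoilΔCd4 MHC I low cells, and at 184, 208 and 201 and 111, 114 and 108 CPM in MHC I high cells. The groups were far apart, and the log2 differences of -0.85 ± 0.067 (adjusted p = 1.41e-09) and -0.84 ± 0.060 (adjusted p = 1.49e-10) held under all alternatives tried. In Sharpin-cpdm mice it was at 223, 215 and 197 and 203, 198 and 179 CPM, with no call against WT.
The ligase *Rnf145* was lower in HoilΔCd4 MHC I high cells (-0.18, adjusted p = 0.03). In Sharpin-cpdm mice, 1 gene was higher in MHC I low cells (*Vcp*, 0.23, adjusted p = 0.0192) and 1 lower in MHC I high cells (6.67% each, beside 5.31% and 4.47% of all genes). Of 13 genes of the isoprenoid branch, which attaches or extends isoprenoid chains, Sharpin-cpdm mice had 1 below WT in the MHC I low and 2 in the MHC I high fraction (7.69% and 15.4%, beside 6.92% and 4.47% of all genes), and HoilΔCd4 mice none. *Ggps1*, the synthase of geranylgeranyl diphosphate, was at 54.2, 53.8 and 56.3 CPM in WT and 38.5, 44.6 and 37.2 CPM in Sharpin-cpdm MHC I high cells (log2 difference -0.44 ± 0.069, adjusted p = 6.95e-05), and differed by -0.26 (adjusted p = 0.0212) in MHC I low cells, where the call was lost with *Xist* as a covariate and without Sharpin-cpdm mouse 3 or WT mouse 1 or 3. *Fnta*, a prenyltransferase subunit, was lower in MHC I high cells (-0.22).
Of 18 genes of sterol transport, esterification and efflux, 16 were tested. Each mutant had 2 higher and 1 lower in the MHC I high (12.5% and 6.25%, beside 3.84% and 2.81% of all genes in HoilΔCd4 and 4.15% and 4.47% in Sharpin-cpdm mice) and none called in the MHC I low fraction. The efflux transporter *Abcg1* was lower in both mutants (-0.28 and -0.35) and the lipoprotein receptor *Lrp8* higher in both (0.26 and 0.24), while the liver X receptor gene *Nr1h3* was higher in Sharpin-cpdm mice (0.97 ± 0.289, adjusted p = 0.0321).
Of 22 genes of fatty acid supply, elongation and activation, 20 were tested, and 4 were higher and 1 lower in Sharpin-cpdm MHC I low cells (20% and 5%, beside 5.31% and 6.92% of all genes), led by *Tecr* (0.30, adjusted p = 0.000694), *Mcat* (0.55, adjusted p = 0.00115) and the elongase *Elovl6* (-0.38, adjusted p = 0.0252). None was called in the other 3 comparisons with WT.
Of 20 genes of fatty acid oxidation, 19 were tested, and every call against WT was higher in the mutant, 1 in each fraction of HoilΔCd4 (5.26% each, beside 0.422% and 3.84% of all genes higher) and 5 and 3 in Sharpin-cpdm mice (26.3% and 15.8%, beside 5.31% and 4.15%). *Cpt1a*, which admits long-chain fatty acids to mitochondria, was at 30.9, 41.8 and 38.6 CPM in WT, 73.5, 70.7 and 75.6 CPM in HoilΔCd4 and 46.2, 48.5 and 44.0 CPM in Sharpin-cpdm MHC I low cells, and at 36.0, 45.1 and 39.4, 68.6, 83.9 and 75.8 and 44.9, 51.1 and 54.0 CPM in the MHC I high cells. HoilΔCd4 stood clearly above WT in both fractions. The log2 differences were 1.02 ± 0.101 (adjusted p = 3.55e-07) and 0.97 ± 0.091 (adjusted p = 1.44e-07) in HoilΔCd4, which held under all alternatives tried, and for Sharpin-cpdm mice 0.37 ± 0.092 (adjusted p = 0.00865) and 0.35 ± 0.083 (adjusted p = 0.00745). The Sharpin-cpdm calls of *Cpt1a* were lost without Sharpin-cpdm mouse 2 or WT mouse 1 in either fraction, and in MHC I high cells also with edgeR, DESeq2 and equal weights and without Sharpin-cpdm mouse 3 or WT mouse 3. *Acaa2*, an enzyme of the oxidation spiral, was higher in both Sharpin-cpdm fractions (0.34 and 0.23) and *Acadvl*, an acyl-CoA dehydrogenase, in MHC I low cells (0.24).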

How the data were processed

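Thymocyte mRNA of 18 samples (2 fractions of 9 mice) had been mapped by the authors to mm10 with Rsubread, and the deposited values are raw counts per Entrez gene from featureCounts with its inbuilt annotation; versions, strand and multi-mapping settings are not given in the sources used here. Gene names came from RefSeq (25275 of 27179 IDs matched; the 1904 others held 0.655% of counts). Samples held 10577966 to 16266128 counts, and totals limit precision most for genes with few counts.

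The deposited counts were filtered (at least 0.5 CPM in 3 samples; Y-linked genes, Xist and predicted genes left out), scaled by TMM (factors 0.987 to 1.02) and fitted as log2 CPM (prior count 1) with limma 3.58.1 (edgeR 4.0.16, statmod 1.5.0, R 4.3.3), with sample quality weights (0.628 to 2.42), mouse as a random block (correlation 0.224) and robust, trended variances. All 6 groups entered the fit, and p-values were Benjamini-Hochberg adjusted over 12798 genes and called under 0.05. Replicate samples are separate mice and differed beyond sampling noise (chi-square per degree of freedom 5.26 to 16.7). The 2 fractions of a mouse deviated together (r = 0.0702 to 0.256). Samples sharing only a number across genotypes had r of -0.0314 to 0.153, and the ranges overlapped. The 3 WT mice had r of 0.0702, 0.149 and 0.119 between their fractions, within the range of samples sharing only a number. The pairing of the fractions comes from the mouse number in the sample names. The script was tested on simulated data.

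CPM printed per sample are TMM-scaled. Values in every sample are given for members called in a mutant against WT and for the 6 with the largest called WT fraction differences; other genes of the pathway lists are named, at most 3 a list, where called against WT. The fit was repeated with the edgeR quasi-likelihood test, with DESeq2 1.42.0, with other scaling, filters, weights and blocks, Xist as a covariate, and each mouse left out. The members and lists were chosen with earlier results of these data known. Positions and promoters are those of RefSeq GRCm38.p6.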

Additional observations from a re-analysis of the deposited data

How the results depend on the processing

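No call of a member, or of Marchf6, Cpt1a or Ggps1, turned its direction under any of the 18 alternatives (17 for Fads2). Of the counts of called members under them, 173 stayed within 1.5 times the count reported and 25 did not, and 139 calls of single genes were lost and 4 gained, against 1240 that stood as reported. The member median in HoilΔCd4 against WT MHC I low cells, near 0, lay between -0.020 and 0.037. In HoilΔCd4 against WT MHC I high cells the count of 1 became 0 with edgeR and 0 with equal sample weights. In Sharpin-cpdm against WT MHC I high cells 4 became 2 with equal weights, and in HoilΔCd4 against Sharpin-cpdm MHC I low cells 4 became 2 with no filter on low counts. For the difference in the change between fractions, 0 became 1 in HoilΔCd4 mice with library size scaling only and with at least 10 counts in every sample, and 1 in Sharpin-cpdm mice with at least 10 counts; in each case the gene was Sqle (adjusted p = 0.0498, 0.0371 and 0.0442).

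Leaving out each mouse in turn gave 12 to 21 called members between the fractions in WT, 11 to 14 in HoilΔCd4 and 15 to 19 in Sharpin-cpdm mice. Where these counts were lowest, 38.7%, 37.7% and 42.5% of all genes were called, against 54.4%, 45.3% and 54.6% with every mouse. Against WT, leaving out each mouse gave 0 to 0 and 0 to 2 in HoilΔCd4 and 1 to 4 and 0 to 4 in Sharpin-cpdm mice (MHC I low and high in turn). Between the mutants it gave 0 to 4 and 1 to 3, and for the change between fractions 0 to 1 in HoilΔCd4 (1 without HoilΔCd4 mouse 1, Sqle at adjusted p = 0.0426) and 0 to 0 in Sharpin-cpdm mice. Without WT mouse 3, 239 genes were called between Sharpin-cpdm and WT MHC I high cells, against 1103 with it. The cause of these changes was not tested.

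With each mouse as a fixed block, the counts were 18, 13 and 19 between the fractions and 0 and 0 for the change. With the replicate number as a fixed block, they were 0, 1, 4 and 3 against WT and 4 and 3 between the mutants. Beside the calls of Idi1 and Fdps given above, no call of a member was lost under these blocks. With no block the counts were 16, 13 and 17 between the fractions and 0, 1, 4 and 4 against WT. They were 4 and 3 between the mutants and 0 and 0 for the change. Among genes outside the members, the alternatives were examined for Marchf6, Cpt1a and Ggps1 only. Depth limits Fads2 and Idi1 most, with 5 to 66 and 20 to 78 counts a sample; Fads2 was removed by the filter of 10 counts in every sample.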
